A study of Mus musculus with 14 samples.

Results

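Leydig cells lie between the seminiferous tubules and make the testosterone of the testis. The genes described here are 8 genes of that pathway and its hormones: Lhcgr, Star, Cyp11a1, Hsd3b1, Hsd3b6, Cyp17a1, Hsd17b3 and Insl3. They were taken by gene symbol from both tables of gene counts, and all 8 were found, each as a single entry, among 32667 genes in the table of spermatogonia (Spg) and 36888 in that of spermatocytes (Spc). The counts came from polyadenylated RNA of mouse germ cells sorted from testes, in 4 groups and 14 libraries: 3 Spg libraries homozygous for a Dnmt3C knockout (Dnmt3C KO/KO, here KO), 3 wild-type (WT) Spg libraries, and 4 Spc libraries of each of these genotypes. All mice were on a C57Bl6/J background. Dnmt3C is the DNA methyltransferase that methylates promoters of young retrotransposons in the male germline, and no other allele or agent was part of these groups. Spg were sorted at postnatal day 14 as DAPI-, beta-2-microglobulin- and EpCAM+ cells. Spc were sorted from mice older than 20 days by DNA content and size with Hoechst, after exclusion of dead cells with propidium iodide, so that stage, age and sort cannot be told apart. Sorted cells of littermates were collected, and the number of animals behind each library is not given in the sources used here. P-values therefore measure the spread between these libraries.

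In the adult testis, luteinizing hormone binds its receptor LHCGR on Leydig cells, STAR carries cholesterol into the mitochondrion, and CYP11A1 cleaves its side chain to give pregnenolone. The 3-beta-hydroxysteroid dehydrogenases HSD3B1 and HSD3B6, CYP17A1 and HSD17B3 then lead to testosterone. INSL3, a peptide hormone of the same cells, drives the descent of the testis. In mice HSD3B6 marks the adult Leydig cell. The HSD17B3 step takes place in Sertoli cells in the fetal testis. Germ cells are a target of testosterone by way of Sertoli and peritubular cells. They are not known as a main site of any of these 8 genes.

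Total counts ran from 40555726 to 53323651 per library. The targeted gene itself did not serve to check the labels, since Dnmt3c had 58 to 116 counts in the KO and 53 to 89 in the WT Spg libraries, and 52 to 57 in the KO and 11 to 28 in the WT Spc libraries. Spc replicates 1 and 4 were much alike in both genotypes. Their chi-square per degree of freedom over genes was 13.7 in KO and 20.4 in WT. All other pairs of Spc replicates had 150 to 386. The values of replicates 1 and 4 are above counting noise alone, which does not show that they come from different animals. The paper gives fewer biological replicates per group for its Spc RNA sequencing than there are Spc libraries here. Replicates 1 and 4 were kept as separate libraries. The calls of the 8 genes that rest on Spc are also given with both counted as 1 library and without them, and those of the gene lists without them. A list of 11 spermatogonial genes summed to 2530 to 3195 CPM (counts per 1000000, scaled over all 14 libraries by the TMM method) in Spg, 1253 to 1904 in WT Spc and 1928 to 2850 in KO Spc. In Spc a list of 10 spermatocyte genes summed to 7100 to 9781 CPM in WT but to 965 to 1824 in KO, which lay within the 919 to 1879 CPM of WT Spg, and spermatid genes to 80.2 to 1539 in WT and 2.51 to 9.59 in KO. By edgeR 7 of the 10 spermatocyte genes were called as lower in KO Spc and 1, Dmc1, as higher (log2 fold change 2.88). Sycp1 (0.27) and Sycp3 (-0.01) were not called, where 57.4% of all features were called at an adjusted p under 0.01. The WT and KO sorts labelled Spc thus differed in germ cell markers as well as in genotype.

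The 8 genes are protein coding and lie on 6 chromosomes of GRCm38. Lhcgr (ENSMUSG00000024107.7) is at chr17:88716481-88791990 on the minus strand, Star (ENSMUSG00000031574.8) at chr8:25806555-25815982 on the plus strand and Cyp11a1 (ENSMUSG00000032323.13) at chr9:58006411-58027023 on the plus strand. The paralogs Hsd3b1 (ENSMUSG00000027871.16) at chr3:98852194-98859794 and Hsd3b6 (ENSMUSG00000027869.14) at chr3:98805504-98814443 are neighbours on the minus strand. Cyp17a1 (ENSMUSG00000003555.8) is at chr19:46667165-46673172 on the minus strand, Hsd17b3 (ENSMUSG00000033122.14) at chr13:64058266-64089230 on the minus strand and Insl3 (ENSMUSG00000079019.2) at chr8:71689214-71690575 on the plus strand. Exons of Insl3 overlap those of Jak3 on the same strand, and 61.8% of the 50-base windows of the Insl3 transcript also occurred in Jak3 transcripts, so reads of Insl3 and Jak3 are hard to tell apart. Of the Hsd3b6 windows 16% and of the Hsd3b1 windows 4.98% occurred in transcripts of other genes, for Hsd3b6 mostly in Hsd3b2 (13.5%) and with 2.17% in Hsd3b1. Cyp11a1 has no such windows but shares exonic positions with the noncoding gene Gm17322 on its strand. No windows of the other 4 genes were shared.

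Stretches of 250 bases upstream of the RefSeq start (GRCm38.p6) are shown, those of the 3 genes with the largest difference between KO and WT Spc and that of Hsd3b1, the paralog of Hsd3b6. Capitals mark CAAGGNC, the core letters bound by the steroidogenic factor NR5A1, and GATAA, the core of GATA factors, on either strand. The TATA box letters TATAAA were searched too.
Lhcgr, chr17:88792015-88792264, minus strand: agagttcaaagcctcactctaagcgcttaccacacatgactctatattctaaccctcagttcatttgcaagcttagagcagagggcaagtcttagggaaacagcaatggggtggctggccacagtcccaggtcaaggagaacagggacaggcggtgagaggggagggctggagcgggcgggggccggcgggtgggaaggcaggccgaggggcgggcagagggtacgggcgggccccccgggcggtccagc
Insl3, chr8:71689002-71689251, plus strand: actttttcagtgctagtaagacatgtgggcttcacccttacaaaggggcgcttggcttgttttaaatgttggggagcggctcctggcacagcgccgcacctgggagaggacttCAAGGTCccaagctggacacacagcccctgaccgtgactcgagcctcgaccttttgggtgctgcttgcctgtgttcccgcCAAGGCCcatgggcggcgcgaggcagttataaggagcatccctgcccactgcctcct
Hsd3b6, chr3:98814444-98814693, minus strand: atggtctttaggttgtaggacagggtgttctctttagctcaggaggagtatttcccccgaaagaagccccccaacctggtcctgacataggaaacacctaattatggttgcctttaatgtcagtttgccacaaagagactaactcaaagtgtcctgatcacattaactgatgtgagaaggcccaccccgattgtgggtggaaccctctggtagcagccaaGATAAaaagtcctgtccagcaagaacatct
Hsd3b1, chr3:98859795-98860044, minus strand: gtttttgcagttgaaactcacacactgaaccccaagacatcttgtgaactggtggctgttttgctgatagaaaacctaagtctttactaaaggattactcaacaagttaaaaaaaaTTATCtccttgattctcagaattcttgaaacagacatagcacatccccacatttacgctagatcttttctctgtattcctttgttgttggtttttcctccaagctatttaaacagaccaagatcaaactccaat
Insl3 held CAAGGTC starting 137 bases and CAAGGCC 57 bases upstream of its start. Hsd3b6 held GATAA at 30 bases and Hsd3b1 held it on the reverse strand, as TTATC, at 134 bases, while Lhcgr held none of the motifs in this window. Of 32851 promoters of the same length, 15% held CAAGGNC, 22.6% GATAA and 12.4% TATAAA on either strand. Promoter sequences were matched for 6 of the 8 genes, as 7 promoters, of which 1 held CAAGGNC, 2 GATAA and 0 TATAAA.

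The comparison of KO with WT within each stage asks how gene expression differs between germ cells with and without Dnmt3C. In Spc, each of the 8 genes was higher in every KO library than in every WT library. With edgeR's quasi-likelihood test 7 of the 8 genes rose at a Benjamini-Hochberg adjusted p under 0.01, by 7.86-fold (Cyp11a1) to 32.0-fold (Lhcgr). Hsd17b3 narrowly missed the threshold. Lhcgr and Hsd17b3 passed the filter on low counts through their KO libraries. With the replicate number as a block, 2 of the 7 calls were left, Star and Insl3. Of all features tested in this comparison 57.4% were called, 27.4% as higher in KO, and 33.7% were higher in every KO library than in every WT library. The median log2 fold change of the 8 genes was 3.19, beside 0.11 over all genes. KO libraries 1 and 4 were far above KO libraries 2 and 3 for all 8 genes. These are bulk samples, in which more cells of a type and more RNA per cell cannot be told apart. The plot of levels by library shows this split in the KO Spc.

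**Figure D1:**
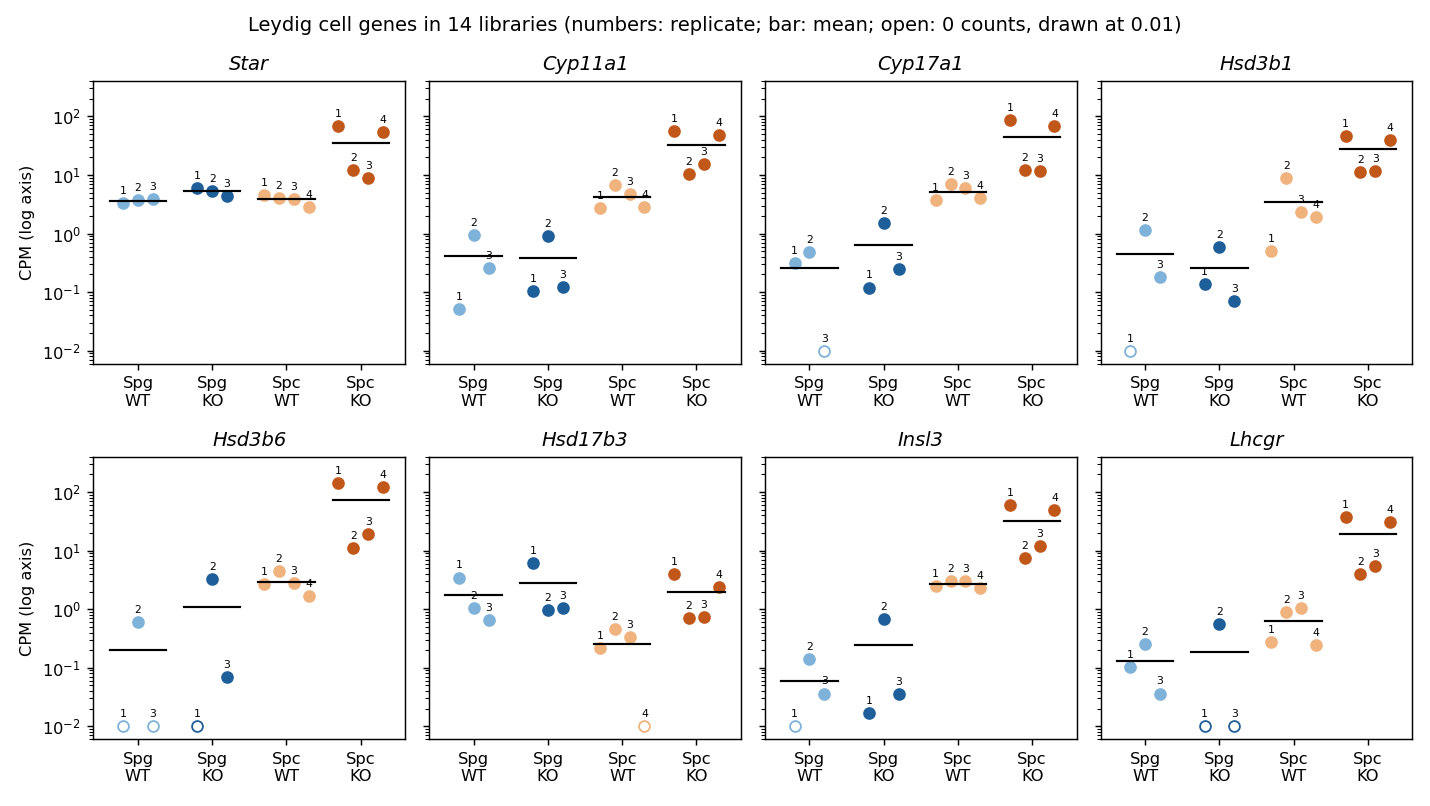
CPM of each of the 8 genes (log axis) in WT and KO spermatogonia (Spg) and spermatocytes (Spc). Each point is a library with its replicate number, bars are group means, and open points are libraries with 0 counts drawn at 0.01. In Spc every KO library lies above every WT library for each gene, with replicates 1 and 4 highest, and Star and Hsd17b3 are the genes with the highest means in Spg.

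Lhcgr, the receptor at the head of the pathway, showed the largest difference. It had 1888, 221, 291 and 1499 counts in the KO Spc libraries 1 to 4 and 9, 30, 44 and 7 in the WT libraries. This made 19.6 ± 17.4 CPM in KO (SD, n = 4) and 0.620 ± 0.420 CPM in WT (SD, n = 4). The lowest KO library was thus at 3.96 CPM and the highest WT library at 1.05 CPM, with a log2 fold change of 5.0 (SE 0.89, adjusted p = 0.000742). Lhcgr passed the filter on low counts through its KO libraries, so these values, the call included, are a description. The fold change rests on few WT counts.

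Star, which delivers cholesterol to the first enzyme, had 3322, 683, 459 and 2617 counts in the KO and 146, 134, 165 and 80 in the WT Spc libraries. Its level was 35.4 ± 29.3 CPM in KO and 3.82 ± 0.733 CPM in WT (SD, n = 4 each). The WT libraries lay close together, from 2.78 to 4.51 CPM, and the KO libraries ran from 8.75 to 67.2. The log2 fold change was 3.23 (SE 0.65, adjusted p = 0.00144). Cyp11a1, the side chain cleavage enzyme, had 2817, 576, 807 and 2337 counts in the KO and 89, 222, 194 and 83 in the WT libraries. That was 32.6 ± 23.2 CPM against 4.24 ± 1.85 CPM (SD, n = 4 each), a log2 fold change of 2.97 (SE 0.59, adjusted p = 0.00133). WT libraries 2 and 3 were the higher WT libraries for Cyp11a1 and KO libraries 1 and 4 the higher KO libraries. Gm17322, which shares positions with Cyp11a1, had 29 to 40 counts in KO and 1 to 10 in WT.

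Of the paralogous 3-beta-hydroxysteroid dehydrogenases, Hsd3b6 had 6922, 619, 993 and 5928 counts in the KO and 87, 149, 118 and 49 in the WT Spc libraries. It reached 72.7 ± 67.1 CPM in KO, the highest mean of the 8 genes, against 2.93 ± 1.16 CPM in WT (SD, n = 4 each), with a log2 fold change of 4.66 (SE 0.83, adjusted p = 0.000718). Hsd3b2, with which it shares most windows, had 0 to 24 counts in KO and 0 to 1 in WT. Hsd3b1 had 2305, 628, 613 and 1962 counts in the KO and 16, 293, 97 and 56 in the WT libraries. The spread in WT was wide, with 8.83 CPM in library 2 and 0.494 in library 1. The means were 27.4 ± 18.6 CPM in KO and 3.40 ± 3.71 CPM in WT (SD, n = 4 each), and the log2 fold change was 3.06 (SE 0.83, adjusted p = 0.00757). Hsd3b1 was the only one of the 7 calls lost on leaving out a single library, and leaving out KO replicate 1 or 4 or WT replicate 1, 3 or 4 moved its adjusted p to between 0.0119 and 0.0229.

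Cyp17a1, which turns progestins into androgens, had 4315, 666, 608 and 3394 counts in the KO and 121, 229, 251 and 114 in the WT Spc libraries. Its level was 45.0 ± 39.0 CPM in KO and 5.15 ± 1.55 CPM in WT (SD, n = 4 each). The log2 fold change was 3.15 (SE 0.68, adjusted p = 0.00224). Hsd17b3, the last step to testosterone, was the gene with the fewest counts. It had 199, 39, 38 and 119 counts in the KO and 7, 15, 14 and 0 in the WT libraries. At 1.97 ± 1.59 CPM in KO and 0.251 ± 0.193 CPM in WT (SD, n = 4 each) its log2 fold change of 2.97 (SE 0.86) had an adjusted p of 0.0108. Its lowest KO value was 0.699 CPM and its highest WT value 0.452, so the groups stood apart by less than for Lhcgr. Hsd17b3 also passed the filter on low counts through its KO libraries, and its values here are a description too.

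Insl3, the peptide hormone, had 2976, 425, 625 and 2440 counts in the KO and 81, 101, 127 and 66 in the WT Spc libraries. The level was 32.3 ± 26.5 CPM in KO and 2.72 ± 0.382 CPM in WT (SD, n = 4 each). The log2 fold change was 3.59 (SE 0.65, adjusted p = 0.00081). Jak3, which shares exons with Insl3, had 3109, 550, 698 and 2440 counts in the same KO libraries and 710, 437, 458 and 634 in WT. In KO the counts of both genes were thus close to each other in every library, while in WT Jak3 had more counts than Insl3 in all 4 libraries. How many of the reads are shared could not be determined from the counts.

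**Figure D2:**
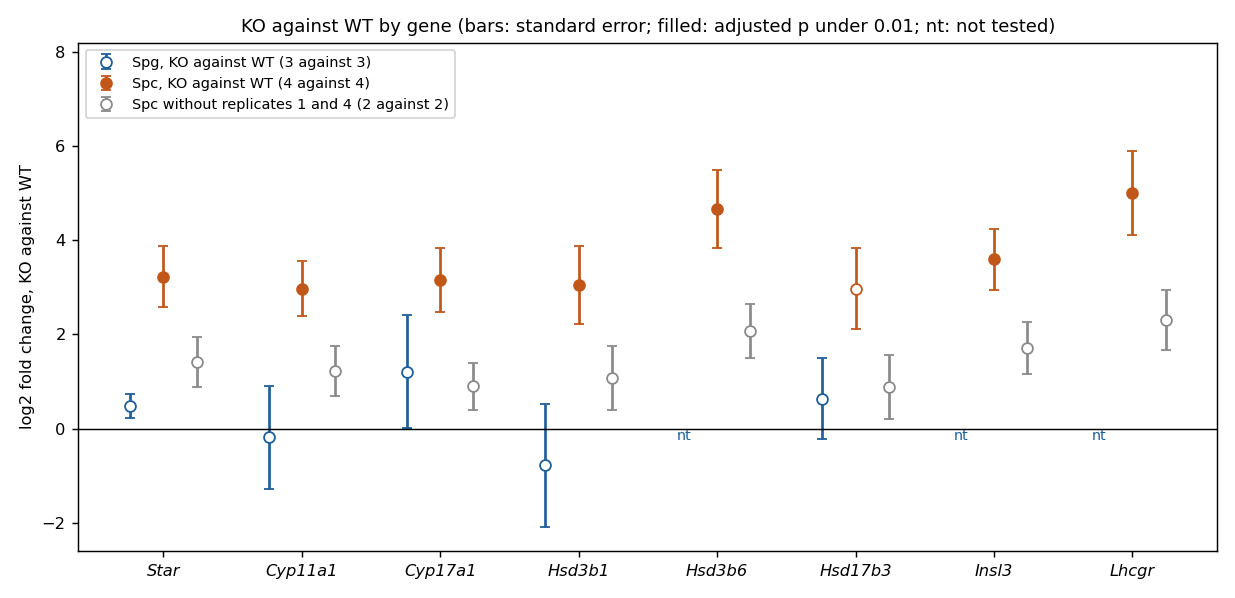
Log2 fold change of KO against WT (vertical axis, error bars are standard errors) for each of the 8 genes in Spg, in Spc, and in Spc without replicates 1 and 4. Filled points passed an adjusted p of 0.01. In Spc 7 genes are filled, in Spg and in Spc without replicates 1 and 4 no point is, and Hsd3b6, Insl3 and Lhcgr were not tested in Spg.

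The size of these differences changed with Spc replicates 1 and 4, which were the highest KO libraries. They were also the lowest WT libraries for each of the 8 genes but Star, and for the summed share of the 8 genes. With replicates 1 and 4 of each genotype summed to 1 library, Lhcgr, Hsd3b6 and Insl3 were called (3 of 8, where 15.4% of features were called as higher in KO). Without these replicates, 2 libraries were left per genotype and 0 of 8 genes were called by edgeR, where 6.75% of features were called as higher. Of the 8 genes 4 then had an unadjusted p under 0.05, and no other tool was run on this subset. Every gene still had a positive log2 fold change, from 0.89 (Hsd17b3) to 2.31 (Lhcgr, adjusted p = 0.0191), with a median of 1.32. Hsd3b6 was at 2.07 (adjusted p = 0.0198) and Insl3 at 1.71 (adjusted p = 0.0372) in this subset. KO libraries 2 and 3 alone therefore lay above all 4 WT libraries for each of the 8 genes, but by less than libraries 1 and 4.

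Summed over the 8 genes, the share of counts in Spc was 524, 84.7, 98.8 and 435 per 1000000 counts in KO libraries 1 to 4 and 10.4, 23.9, 20.5 and 9.56 in WT. The 95% Wilson interval of the highest library was 518 to 531 and that of the lowest KO library 82.1 to 87.4, which covers counting error only. Per 1000000 counts the mean share was 286 ± 227 in KO and 16.1 ± 7.19 in WT (SD, n = 4 each). Counting error was therefore small beside the spread between KO libraries.

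Summed markers of peritubular and stromal, macrophage and endothelial cells were also higher in KO Spc libraries, while those of Sertoli cells overlapped between genotypes. The part of these cells in the results was not tested. The counts of called genes below stand beside the 27.4% of all features called as higher, and 6.75% without replicates 1 and 4. Peritubular and stromal genes summed to 7216, 6438, 629 and 6263 CPM in KO Spc libraries 1 to 4 and to 79.7 to 95.3 CPM in WT. Of the 12 genes of that list 9 rose and 1 fell, and 7 were called as higher without replicates 1 and 4. The 10 macrophage genes summed to 65.8 to 251 CPM in KO and 7.03 to 24.9 in WT, and all 10 rose, while 4 calls were made without replicates 1 and 4. Endothelial genes summed to 31.2 to 152 CPM in KO and 9.57 to 12.8 in WT, and 3 of 7 rose, with 2 calls without those replicates. Sertoli genes summed to 1650, 734, 511 and 1549 CPM in KO and to 195 to 745 in WT, and 4 of 14 rose, a share near that of all features, with 1 call without those replicates. None of the genes of these 4 lists was at 0 in all KO or all WT Spc libraries. KO library 2 was near libraries 1 and 4 in the sum of the peritubular list and near library 3 in the sum of the 8 Leydig genes. The 8 genes summed to 69.1 CPM in library 2 and 84.5 in library 3, against 500.2 and 413 CPM in libraries 1 and 4.

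**Figure D3:**
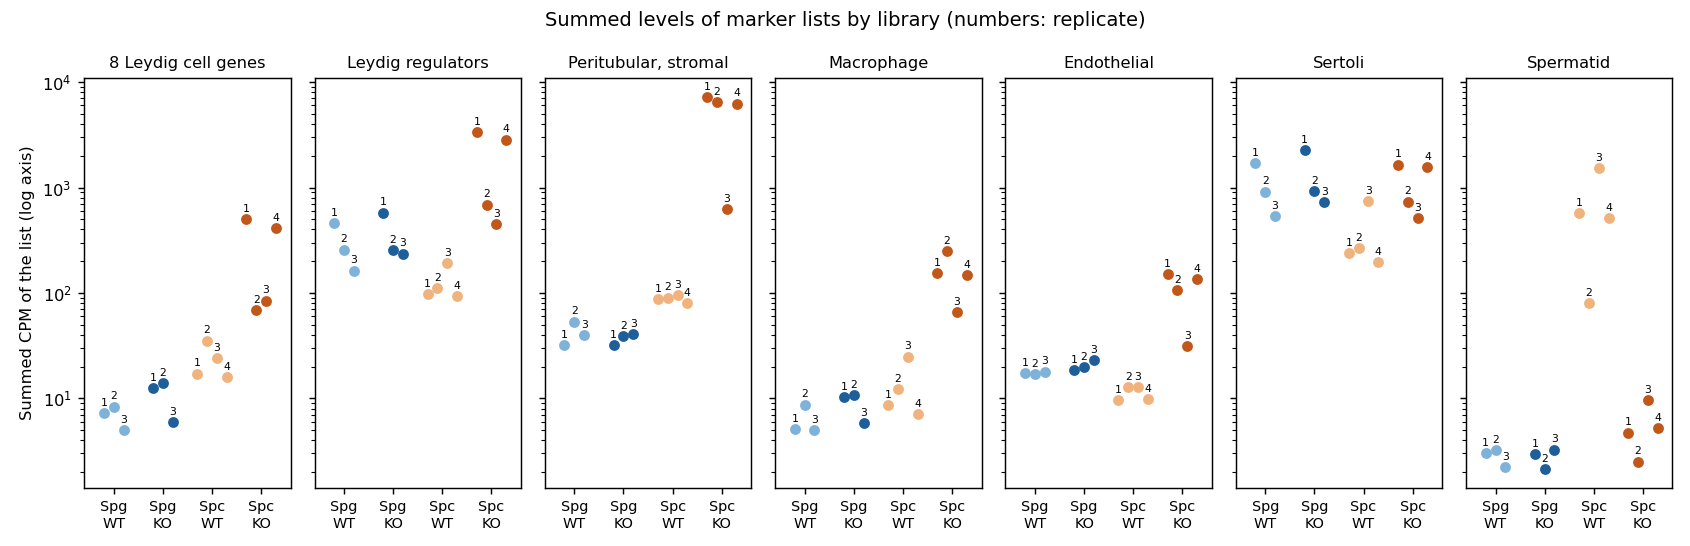
Summed CPM (log axis) of the 8 Leydig genes and of marker lists in WT and KO Spg and Spc. Each point is a library with its replicate number. The KO Spc libraries 1 and 4 are high in the 8 genes (500.2 and 413 CPM) and in the list of regulators (3332 and 2842 CPM), library 2 is high in the peritubular list (6438 CPM), and spermatid genes are low in all KO Spc libraries.

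In Spg the 8 genes were at low levels in both genotypes. Only Star, Cyp11a1, Cyp17a1, Hsd3b1 and Hsd17b3 passed the filter on low counts, and 0 of these 5 were called by edgeR, where 0.0741% of features were called. None of the 5 had an unadjusted p under 0.05, and DESeq2 called 0 of them. Star had 347, 307 and 242 counts in the KO Spg libraries 1 to 3 and 192, 190 and 210 in the WT libraries. This was 5.21 ± 0.841 CPM in KO and 3.64 ± 0.279 CPM in WT (SD, n = 3 each). Every KO library was above every WT library for Star, as for 5.06% of features, with a log2 fold change of 0.48 (SE 0.26, adjusted p = 0.873), which did not pass the test.

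Hsd17b3 had 364, 56 and 60 counts in KO and 201, 52 and 36 in WT. Library 1 of each genotype was the highest, at 6.23 CPM in KO and 3.47 in WT, and the other 4 libraries lay between 0.655 and 1.06 CPM. The list of 14 Sertoli genes was also highest in these libraries, with 2249 CPM in KO and 1706 in WT library 1 and 534 to 919 CPM in the other 4, and its part in the level of Hsd17b3 was not tested. The log2 fold change of Hsd17b3 was 0.63 (SE 0.86, adjusted p = 0.9996), and without KO replicate 1 it was -0.77.

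The 6 remaining genes had their highest Spg counts in library 2 of each genotype. Cyp11a1 had 6, 51 and 7 counts in KO and 3, 47 and 14 in WT. Cyp17a1 had 7, 87 and 14 counts in KO and 18, 24 and 0 in WT, and Hsd3b1 had 8, 33 and 4 in KO and 0, 57 and 10 in WT. The groups overlapped for all 3, with log2 fold changes of -0.18 (SE 1.09), 1.21 (SE 1.21) and -0.78 (SE 1.30) in that order. Hsd3b6 had 0, 184 and 4 counts in KO and 0, 30 and 0 in WT. Insl3 had 1, 39 and 2 counts in KO and 0, 7 and 2 in WT, and Lhcgr 0, 32 and 0 in KO and 6, 13 and 2 in WT. These 3 were not tested in Spg, and most of their counts in both genotypes came from library 2. Without KO replicate 2 the log2 fold change of Cyp17a1 was -0.54, and without WT replicate 2 that of Cyp11a1 was 1.28 and that of Hsd3b1 1.52, so their direction depended on library 2. That of Cyp11a1 also turned without KO replicate 1 (0.29) or 3 (0.26). With edgeR no marker list had a called gene in Spg, and with the replicate block 1 spermatocyte gene was called as lower.

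Whether the effect of KO differed between stages was tested over all 14 libraries. Of the 8 genes 0 were called by edgeR, where 24.9% of features were called, 4 had an unadjusted p under 0.05, and DESeq2 called 1, Star. Star had the smallest adjusted p, with a KO effect that was higher in Spc by 2.69 (log2, SE 0.79, adjusted p = 0.0143). The difference was 4.45 for Lhcgr (SE 1.75, adjusted p = 0.0514), 3.07 for Cyp11a1 (SE 1.25, adjusted p = 0.0593) and 3.73 for Hsd3b1 (SE 1.62, adjusted p = 0.0733). For Hsd17b3, Hsd3b6, Cyp17a1 and Insl3 it was 2.25, 2.13, 1.86 and 1.5, with SEs from 1.32 to 2.05. Lhcgr, Hsd3b6 and Insl3 did not pass the filter on low counts within Spg and entered this fit through their counts in Spc. Their values here, the unadjusted p of Lhcgr included, are thus a description. A rise called in Spc and not in Spg was thus not shown to differ between the stages at the threshold used, with few counts in Spg. Without Spc replicates 1 and 4 this difference changed sign for Cyp17a1 (-0.24), Hsd3b6 (-0.29) and Insl3 (-0.24).

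The group means followed a similar order for 6 of the genes, lowest in Spg, higher in WT Spc and highest in KO Spc. For Lhcgr and Hsd3b1 the WT Spc and WT Spg libraries overlapped. Between WT Spc and WT Spg, 3 of 8 genes were called, all as higher in Spc, where 51.4% of features were called and 28.9% as higher. These were Insl3 (log2 fold change 5.53, SE 1.25, adjusted p = 0.00153), Cyp17a1 (4.29, SE 1.13, adjusted p = 0.00439) and Cyp11a1 (3.36, SE 0.97, adjusted p = 0.0073). With Spc replicates 1 and 4 summed or left out, Cyp11a1 lost its call (adjusted p = 0.0107 and 0.0148) and 2 genes were called, and the replicate block called Hsd3b6, Cyp11a1 and Insl3. Insl3, Hsd3b6 and Lhcgr did not pass the filter on low counts within Spg and entered both comparisons of stages through their counts in Spc, so their values there, the calls of Insl3 included, are a description, and counts of Insl3 may include reads of Jak3. Leaving out WT Spg replicate 3 left 0 calls and leaving out WT Spg replicate 1 left 1. Hsd3b6 at 3.90 (adjusted p = 0.0480), Hsd3b1 at 2.96 (adjusted p = 0.0433) and Lhcgr at 2.23 (adjusted p = 0.136) did not pass. Star did not follow this order, with 3.64 ± 0.279 CPM in WT Spg (SD, n = 3) and 3.82 ± 0.733 CPM in WT Spc (SD, n = 4), a log2 difference of 0.07 (SE 0.55, adjusted p = 0.922) whose sign changed with the scaling. Hsd17b3 was the only one of the 8 genes lower in WT Spc, with every WT Spc library below every WT Spg library and a log2 fold change of -2.74 (SE 0.97, adjusted p = 0.0228) that missed the threshold. DESeq2 called it as lower (adjusted p = 0.00496), as did edgeR with libraries scaled by their totals (adjusted p = 0.0063), where 1 of the 8 genes was called as higher and 1 as lower.

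Between KO Spc and KO Spg, 3 of 8 genes were called, all as higher in Spc, where 2.99% of features were called and 2.95% as higher. Again these were Insl3 (log2 fold change 7.02, SE 1.24, adjusted p = 0.00337), Cyp11a1 (6.43, SE 1.11, adjusted p = 0.00296) and Cyp17a1 (6.15, SE 1.21, adjusted p = 0.0066). Hsd3b1 at 6.69, Lhcgr at 6.68, Hsd3b6 at 6.04 and Star at 2.76 had adjusted p from 0.0112 to 0.0415. Hsd17b3 was at 2.76 ± 3.01 CPM in KO Spg (SD, n = 3) and 1.97 ± 1.59 CPM in KO Spc (SD, n = 4), which overlapped. With Spc replicates 1 and 4 summed, without them, or with the replicate block, 0 of 8 genes were called in this comparison. Leaving out KO Spg replicate 1 or 3 also left 0, leaving out KO Spc replicate 4 left 1, and leaving out KO Spc replicate 2 or 3 gave 5 and 6.

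The order among the genes differed between stages when levels were divided by the length of their exons. In KO Spc the mean level per kilobase was highest for Insl3 (51.9 CPM per kb, libraries from 12.2 to 96.6) and Hsd3b6 (40.3, from 6.15 to 77.6). The place of Insl3 rests on counts that may include reads of Jak3. Cyp17a1 (16.2, from 4.19 to 31.5) and Hsd3b1 (14.8, from 6.07 to 25.1) followed, and the ranges of neighbours in this order overlapped all the way down. Star (8.60), Cyp11a1 (6.78), Lhcgr (2.56) and Hsd17b3 (1.41) had lower means per kilobase. In WT Spc Insl3 was again first at 4.37 CPM per kb (3.69 to 4.89), above every library of Cyp17a1 (1.35 to 2.49) but not of Hsd3b1 (0.266 to 4.76), and Lhcgr last at 0.0811 (0.0318 to 0.138). In Spg the genes with the highest means per kilobase were Hsd17b3 (1.98 CPM per kb in KO, 1.24 in WT) and Star (1.27 in KO, 0.885 in WT), whose ranges overlapped. Hsd17b3 led through library 1 of each genotype (4.48 CPM per kb in KO, 2.50 in WT), and in libraries 2 and 3 Star was the higher of this pair, at 1.31 and 1.04 CPM per kb in KO against 0.709 and 0.765 for Hsd17b3, and at 0.919 and 0.929 in WT against 0.744 and 0.471.

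The make-up of the counts followed the same division. Star held 38.9% to 76.6% of the counts of the 8 genes in the 6 Spg libraries and 10.4% to 26.3% in the 8 Spc libraries. Hsd17b3 held 7.10% to 49.7% in Spg and 0% to 1.39% in Spc. Hsd3b6 held 16% to 29.2% in KO Spc and 10.8% to 15.6% in WT Spc, and Lhcgr 5.73% to 7.63% in KO and 1.54% to 4.36% in WT, so that for both genes every KO library was above every WT library. Cyp17a1 went the other way, with 13.7% to 17.4% in KO and 19.5% to 25.1% in WT Spc. The shares of the remaining 5 genes overlapped between genotypes in Spc.

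**Figure D4:**
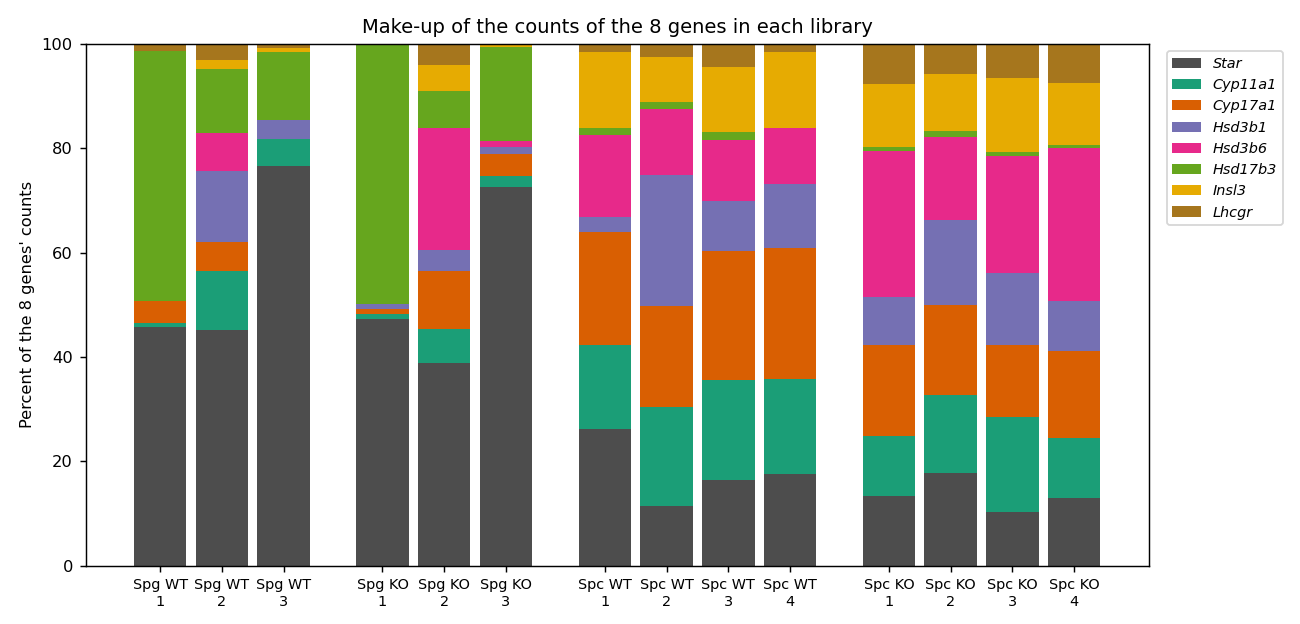
Percent of the summed counts of the 8 genes held by each gene (stacked to 100) in each library of Spg and Spc, WT and KO, with the replicate number under each bar. Star (38.9% to 76.6%) or Hsd17b3 holds the largest share in each Spg library, and in Spc Hsd17b3 holds at most 1.39%.

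Within the Spc groups the 8 genes varied together. The correlation between their deviations from group means over the 8 Spc libraries was 0.599 to 0.985 for the 28 pairs of genes, with a median of 0.945. These libraries share the split between replicates 1 and 4 and the others, and the points share depth and scaling. In Spg the 15 pairs without Star and Hsd17b3 had correlations of 0.621 to 0.990 over 6 libraries, in which library 2 was high. Pairs with Hsd17b3 ran from -0.564 to 0.268 there, and pairs with Star from 0.00595 to 0.404. These values are descriptions of few libraries.

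Among 16888 genes with a mean of at least 1 CPM, the 5 whose log2 CPM was most like the mean of the 8 genes over the 14 libraries included Itih2 (Pearson r 0.991), Agt (0.988), Vcam1 (0.988) and Prlr (0.985). Over deviations from the 4 group means the 5 leading genes included Vcam1 (0.974), Guca1b (0.969), Cxcl1 (0.961) and Itih2 (0.956). The libraries share the split in KO Spc, which both measures reflect.

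Genes around the pathway were read from lists, and in Spg 0 genes of these lists were called by edgeR, with or without the replicate block. In Spc the 20 regulators and other markers of Leydig cells had 15 called genes, all higher in KO, and a median log2 fold change of 4.00, beside 0.11 over all genes. Their leading genes were Pdgfra (6.09), a growth factor receptor of Leydig precursors and stroma, Igf1 (6.33), a growth factor, Vcam1 (5.55), an adhesion molecule, and Dlk1 (4.87), a marker of immature Leydig cells. Nr5a1 (2.53) and Gata4 (2.90), the transcription factors of steroidogenic cells that Sertoli cells share, rose as well, and are named after their values were seen. Without Spc replicates 1 and 4 their log2 fold changes were 0.77 and 0.72. Without replicates 1 and 4, 8 of the 20 were called. The summed level of this list was 3332, 688, 451 and 2842 CPM in KO and 92.7 to 191 CPM in WT Spc.

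Among the partners of the steroid enzymes and genes of cholesterol handling, 5 of 13 genes rose and 2 fell in KO Spc, with a median log2 fold change of 0.56. This share of called genes was near the 57.4% of all features. Npc1 (3.18), which exports cholesterol from lysosomes, Por (1.78), the electron donor of microsomal P450 enzymes, and Tspo (3.39), an outer mitochondrial membrane protein, were among those that rose. Lipe (-1.31), a hormone-sensitive lipase, and Fdx1 (-1.09), the ferredoxin that feeds electrons to CYP11A1, fell. The electron donor of CYP11A1 and the enzyme itself thus went opposite ways with TMM scaling. Fdx1 was at -0.38 with libraries scaled by their totals. Without replicates 1 and 4, 1 gene of this list rose and 1 fell, and with libraries scaled by their totals 8 rose and 0 fell.

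Cholesterol synthesis had 9 of 18 genes that rose and 2 that fell, with a median of 0.95, again near the 57.4% of all features called. Nsdhl (3.47), Msmo1 (2.62) and Sc5d (1.16), which act late in the route from lanosterol to cholesterol, were among those that rose. Fdft1 (-3.11), squalene synthase, and Sqle (-0.78), squalene epoxidase, fell. Other steroid-converting enzymes had 7 genes that rose and 2 that fell among 12 tested of 18 listed, with a median of 2.92. Akr1c14 (4.96), Hsd17b11 (3.82), Hsd17b12 (2.97) and Hsd17b10 (2.87) rose. Cyp19a1 (-2.6), the aromatase that makes estrogen, fell, and Hsd17b4 (-0.65), a peroxisomal enzyme of fatty acid oxidation, fell but was at 0.07 when libraries were scaled by their totals. Scaling by totals moved the median of all genes from 0.11 to 0.79 on the log2 scale. The direction of the other called genes of these lists did not change with it, but Sqle was then at -0.09. Cholesterol synthesis then had 11 genes called as higher and 1 as lower. Without replicates 1 and 4, 2 genes of each of these lists rose and 1 fell.

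Of the receptors for Leydig products 4 of 7 were tested in Spc. Of these 3 rose, Esr1 (5.19) and Nr3c1 (2.62), receptors for estrogen and glucocorticoid, among them, and Rxfp2 (-6.94), the receptor for INSL3, fell. Rxfp2 was at 10.9 to 29.3 CPM in WT Spc and 0.0763 to 0.269 CPM in KO Spc. In Spg it was low in both genotypes, at 0.242 to 1.13 CPM in WT and 0 to 0.123 in KO. The hormone Insl3 and its receptor thus differed in opposite directions in Spc, and a link between them was not tested. Without replicates 1 and 4, 1 of these receptors rose and 1 fell. Over all genes named from these lists the SE of the log2 fold change ran from 0.16 to 0.84 and the adjusted p of edgeR from 1.48e-05 to 0.00827.

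**Figure D5:**
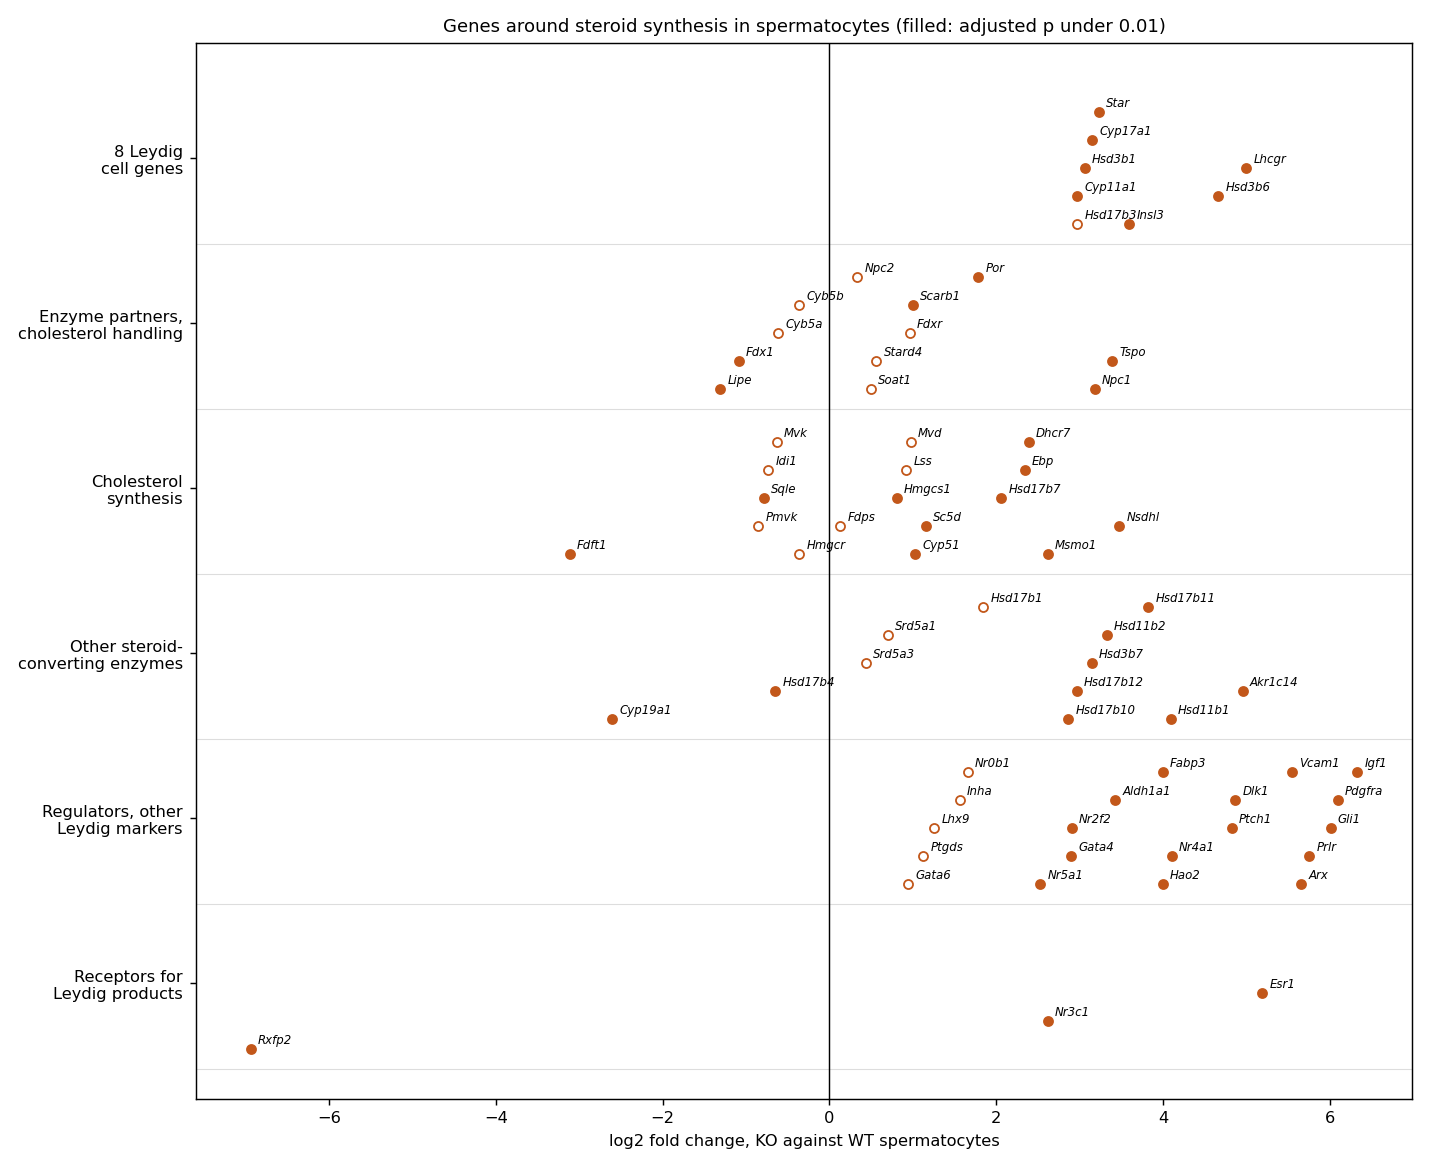
Log2 fold change of KO against WT Spc (horizontal axis) for the 8 Leydig genes and for genes of 5 lists around steroid synthesis. Each point is a gene, filled where its adjusted p was under 0.01, and genes not reported here are left out. The 8 genes and the regulators lie to the right of 0, and the other lists hold genes on both sides, with Rxfp2 (-6.94) farthest to the left.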

How the data were processed

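RNA was polyadenylated RNA of sorted mouse germ cells, made into stranded libraries. According to the methods, the authors aligned reads with STAR, kept up to 100 alignments per read, and counted genes and transposable elements with TEtranscripts 2.2.3 against GRCm38 and GENCODE M25. The deposited values used here are these raw counts. Columns of the authors' own comparisons (fold changes and p-values) and TPM tables of single transposable element copies were not used. Libraries that the authors excluded for RNA integrity below 8 were not analysed here. The Spg columns numbered 4 belong to samples titled replicate 3 and are called replicate 3.

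Counts of each stage were tested with edgeR 4.0.16 (quasi-likelihood, filterByExpr, TMM over genes and transposable element subfamilies) in R 4.3.3, with Benjamini-Hochberg adjustment over all features and a threshold of 0.01. Differences between stages were fitted on all 14 libraries in 4 groups. CPM was scaled by TMM over the 14 libraries, and CPM per kb used the exon union of GENCODE M21 on GRCm38. Correlations used log2(CPM + 0.5). Total counts were 40555726 to 53323651 per library, and Wilson intervals (95%) cover counting error only. The steps were tested on simulated data.

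Alternatives were tests with DESeq2 1.42.0, other scalings (its size factors, TMM without transposable elements, or totals), an open filter or one at a mean count of 50, an adjusted p of 0.05, a replicate block and leaving out each library. Chosen after seeing the data were Spc replicates 1 and 4 summed or left out and Spg without both libraries numbered 1 or 2. Same-numbered Spg libraries deviated together (correlations of deviations from group means 0.726, 0.148 and 0.301), and this pairing comes from the data, not the labels. KO library 2 correlated better with WT library 3 (0.295). The 8 genes and all lists were chosen with earlier results of these data known. Named were the 8 genes, up to 4 called genes per pathway list and direction by smallest p, the 5 genes most like their mean by each of 2 measures, and marker genes beside a result. Some genes that this rule names are not reported here, though the counts of their lists include them.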

Additional observations from a re-analysis of the deposited data

How the results depend on the processing

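Of the single-gene values under an alternative setting, 683 kept direction and side of the threshold, 62 lost and 32 gained the threshold, and 28 changed direction; of the counts and summed shares, 102 stayed close and 26 moved. In KO against WT Spc, where 7 genes were called, the replicate block left 2 (Star and Insl3), replicates 1 and 4 summed left 3, and without both it was 0; leaving out each library gave 6 to 8. Same-numbered Spc libraries did not all deviate together (correlations 0.0755, 0.228, -0.0379 and 0.133), so the numbers are not taken as pairs there. In Spg the replicate block changed no call of the 8 genes. For the difference between stages, 0 calls became 1 with DESeq2, with library totals, at an adjusted p of 0.05 and in Spg without both libraries numbered 2, and leaving out each library gave 0 to 1. For WT Spc against WT Spg, 3 calls became 1 without the Spg libraries numbered 1, 5 without those numbered 2 and 6 at an adjusted p of 0.05, and leaving out each library gave 0 to 4. For KO Spc against KO Spg, 3 calls became 6 with DESeq2, 7 at an adjusted p of 0.05 and 0 under the replicate block, with Spc replicates 1 and 4 summed or left out, and without the Spg libraries numbered 1; leaving out each library gave 0 to 6. Direction changed in Spg on leaving out libraries for Cyp11a1 (-1.87 to 1.28, 0.29 and 0.26 among them), Cyp17a1 (-0.54 to 1.98), Hsd3b1 (-1.40 to 1.52) and Hsd17b3 (-0.77 to 1.65). In the difference between stages it changed without Spc replicates 1 and 4 for Cyp17a1 (-0.24), Hsd3b6 (-0.29) and Insl3 (-0.24), and on leaving out libraries for Hsd3b6 (-4.11 to 7.11). Star between the WT stages went from 0.07 to -0.74 with library totals, -0.069 with no filter, -0.029 without Spc replicates 1 and 4, -0.14 and -0.022 without the Spg libraries numbered 1 and 2, and -0.14 to 0.21 on leaving out each library. Hsd17b3 between the KO stages went from -0.49 to 0.88 without the Spg libraries numbered 1, and ranged from -1.13 to 0.88 on leaving out each library. The cause was not tested. Hsd17b3 in KO against WT Spc passed the threshold with DESeq2, with library totals, with no filter and without KO replicate 3. Few counts in Spg limit all comparisons with it, and 3 of the genes could not be tested there.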

Other observations

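The genes behind the Spg sort were read in Spc, where they were not sorted on. B2m, the light chain of class I molecules, rose in KO Spc (log2 fold change 2.93, SE 0.48, edgeR adjusted p = 0.000421), with 102, 62.0, 20.7 and 90.6 CPM in KO libraries 1 to 4 and 5.7 to 12.5 CPM in WT. Without Spc replicates 1 and 4 its log2 fold change was 1.85 and it did not pass the threshold. Epcam was at a log2 fold change of 0.64 (adjusted p = 0.0487). Erythroid genes summed to 1.2 to 11.9 CPM in KO and 1.51 to 7.59 CPM in WT Spc, and 0 of the 2 tested by edgeR were called.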
